A study of Homo sapiens with 8 samples.

Results

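The phagocyte NADPH oxidase subunits were examined through 7 genes, CYBB, CYBA, NCF1, its near copies NCF1B and NCF1C, NCF4 and RAC2, taken by symbol from the 57992 genes counted in Molm13 cells and by the same Ensembl identifier from the 58174 genes counted in THP1 cells. All 7 were present in both tables and all 7 had enough reads to be tested in both lines. Molm13 and THP1 are human acute myeloid leukemia (AML) lines with monocytic features and fusions of MLL (KMT2A). Bulk polyA RNA-seq was performed after Dox induction of a control shRNA (shCtrl, genotype given as WT) or of an shRNA against the arginine methyltransferase PRMT9 (shPRMT9, genotype given as PRMT9 knockdown), so that all 8 libraries came from Dox-treated, shRNA-expressing cells. Each of the 4 groups, Molm13 shCtrl, Molm13 shPRMT9, THP1 shCtrl and THP1 shPRMT9, held 2 libraries, and nothing given with them states separate cultures, so that p-values measure only the spread between these libraries. The letters OCI stand in the THP1 library names, whereas their other labels give THP1. Numbers 1 and 2 of shPRMT9 were read as replicates, although hairpins have the same numbers elsewhere in the study.

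The phagocyte oxidase is a membrane enzyme of neutrophils, monocytes and macrophages that passes electrons from NADPH to oxygen to make superoxide, the first product of the respiratory burst. CYBB encodes its catalytic subunit, and CYBA encodes the small membrane partner with which CYBB forms flavocytochrome b and on which CYBB protein depends for its maturation. NCF1 encodes the cytosolic organizer, NCF4 a cytosolic subunit that binds phosphoinositides of the phagosome membrane, and RAC2 the hematopoietic GTPase that joins the complex when the cell is activated. Loss of CYBB, CYBA, NCF1 or NCF4 causes chronic granulomatous disease.

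Reads of NCF1 are hard to place, because NCF1B and NCF1C are pseudogenes (annotated as a transcribed unprocessed and an unprocessed pseudogene) that lie near it on chromosome 7 and are almost the same in sequence. Over 1394 aligned bases, the NCF1C-201 transcript differed from NCF1-201 by 8 substitutions (99.4% identity), and the longest stretch without a difference was 291 bases. The first 5 exons of NCF1B-202 differed from NCF1-201 by 3 substitutions over 471 aligned bases (99.4% identity). The known difference is at the start of exon 2, where NCF1 has 2 GT repeats and both copies have 1, which removes 2 bases and shifts the reading frame. The first 30 bases of exon 2 are shown from GENCODE release 29 on GRCh38, each 5′ to 3′ in the direction of its gene and with the leading GT repeats in capitals, because these bases tell the gene from its copies.
NCF1, chr7:74777267-74777296, plus strand: GTGTacatgttcctggtgaaatggcaggac
NCF1B, chr7:73223878-73223907, plus strand: GTacatgttcctggtgaaatggcaggacct
NCF1C, chr7:75168681-75168710, minus strand: GTacatgttcctggtgaaatggcaggacct
The deposited values are counts per gene, which do not show which bases a read covered, and how the authors' counting treated reads that fit more than 1 of the loci is not given in the sources used here. The values of the 3 rows are therefore uncertain one by one, and their sum is given beside them.

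RefSeq promoters (GRCh38.p14) were found for 3 of the 7 members, CYBB, CYBA and NCF1, and the 250 bases before each RefSeq start were searched on both strands for 2 motifs of factors described at oxidase promoters. The motifs were a purine-rich ETS core (GAGGAA) and a pair of interferon regulatory factor core letters (GAAANNGAAA), and no matches overlapped. CYBB and NCF1, the members with a promoter sequence that rose in both lines, are shown up to the start of the gene in GENCODE, 5′ to 3′ on the plus strand, with the interferon regulatory factor pairs of either strand in capitals.
CYBB, chrX:37779809-37780010: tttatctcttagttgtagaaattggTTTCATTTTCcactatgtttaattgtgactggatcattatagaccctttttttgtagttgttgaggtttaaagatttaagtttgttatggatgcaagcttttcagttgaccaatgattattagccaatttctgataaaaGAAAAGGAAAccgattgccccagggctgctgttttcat
NCF1, chr7:74773761-74773961: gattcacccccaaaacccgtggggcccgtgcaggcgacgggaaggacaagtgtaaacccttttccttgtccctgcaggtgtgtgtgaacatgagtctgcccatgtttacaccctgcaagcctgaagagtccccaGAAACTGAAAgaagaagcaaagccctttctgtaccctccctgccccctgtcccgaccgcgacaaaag
The ETS core lies on the minus strand nearer to the RefSeq start of both genes, at or past their start in GENCODE. It is shown with its plus-strand letters in capitals and the 10 bases to either side.
CYBB, chrX:37780001-37780026: ctgttttcatTTCCTCattggaagaa
NCF1, chr7:74773956-74773981: caaaagcgacTTCCTCtttccagtgc
The pair was found 225 to 216 and 86 to 77 bases before the RefSeq start of CYBB and 116 to 107 bases before that of NCF1, and in 3.02% of 35116 promoters of the same length. The ETS core was found 48 to 43 and 45 to 40 bases before the RefSeq starts, and in 23.6% of promoters. The CYBA window held neither motif. A match is a description of letters and not a measured site.

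Depth ranged from 18720950 to 27356870 counted reads per library, to which levels were scaled as CPM (counts per 1000000 reads), and the most abundant gene held at most 2.08% of a library's reads. The target was lower in every shPRMT9 library. PRMT9 counts were 332 and 289 in Molm13 shCtrl against 41 and 56 in shPRMT9, and 317 and 352 in THP1 shCtrl against 60 and 68 in shPRMT9, with log2 fold changes of −2.68 ± 0.14 (SE, adjusted p = 1.2e-21) and −2.29 ± 0.13 (SE, adjusted p = 3.5e-14, quasi-likelihood test in edgeR, Benjamini-Hochberg adjusted). Of 13 markers of monocytic leukemia cells, 11 were above 1 CPM in Molm13 and 12 or 13 in THP1. CD14 was below 1 CPM in Molm13 and in THP1 shCtrl (0.935 and 0.869), and at 4.64 and 4.94 CPM in THP1 shPRMT9. CSF2RA was at 0 or 0.0470 CPM in Molm13. The summed level of this list was 1648 to 1655 CPM in Molm13 shCtrl and 2577 to 2588 in shPRMT9, and 2887 to 2915 in THP1 shCtrl and 4221 to 4378 in shPRMT9, so that the sum, most of it LYZ in THP1, was higher with the knockdown in both lines. Of the list, MPO in both lines, FCGR1A in Molm13 and CEBPA in THP1 were lower in both shPRMT9 libraries than in both shCtrl libraries. The 4 T cell markers summed to at most 0.546 CPM and the 4 red cell markers to at most 0.273 CPM. Of 3 B cell markers, MS4A1 and CD79A were below 1 CPM in every library, and PAX5 was at 38.6 to 42.5 CPM in Molm13, 2.49 and 3.11 in THP1 shCtrl and 11.9 and 11.2 in THP1 shPRMT9. Of 4 epithelial markers, KRT8 was at 1.30 to 6.51 CPM over the 8 libraries and KRT18 at 11.6 to 13.8 CPM in Molm13 and at most 0.122 in THP1, and EPCAM and CDH1 were below 1 CPM in every library. The part of a shift in monocytic state in the values below was not tested, and in bulk RNA fewer cells of a type and less RNA per cell cannot be told apart.

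The levels of the 7 genes were first set side by side in the 2 lines, as RPKM (CPM per kilobase of exon). Both lines were scaled with the total exon lengths in the Molm13 table, since counts alone cannot be compared between genes of unlike length. By RPKM, RAC2 was the highest in every group, followed by CYBA. In Molm13 shCtrl, RAC2 was at 103 ± 0.05 RPKM (SD, n = 2), CYBA at 48.4 ± 1.72, NCF4 at 24.7 ± 0.112, and CYBB last at 0.390 ± 0.0128. In THP1 shCtrl, RAC2 was at 118 ± 3.93 RPKM (SD, n = 2), CYBA at 80.5 ± 4.42, NCF4 at 20.9 ± 0.351 and CYBB at 3.58 ± 0.0543, and the 3 NCF1 rows came last, between 0.123 and 0.300 RPKM over the 2 libraries. Within each group the libraries of neighbouring genes in this order did not overlap, except NCF1B and NCF1 in Molm13 shPRMT9, and NCF1C, NCF1 and NCF1B in THP1 shCtrl, each of which overlapped its neighbour. The order of all 7 genes depends on these total exon lengths, which can exceed that of a transcript. For NCF1 the length used was 3462 bases, against 1396 for its transcript aligned above. The order by transcript lengths was not tested, so that RAC2 above CYBA is an order by RPKM only. The lengths used for NCF1B and NCF1C were 1902 and 1427 bases. In Molm13 shCtrl NCF1 had the most reads of these 3 rows and NCF1C the highest RPKM. The plot of RPKM by library shows these levels.

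**Figure D1:**
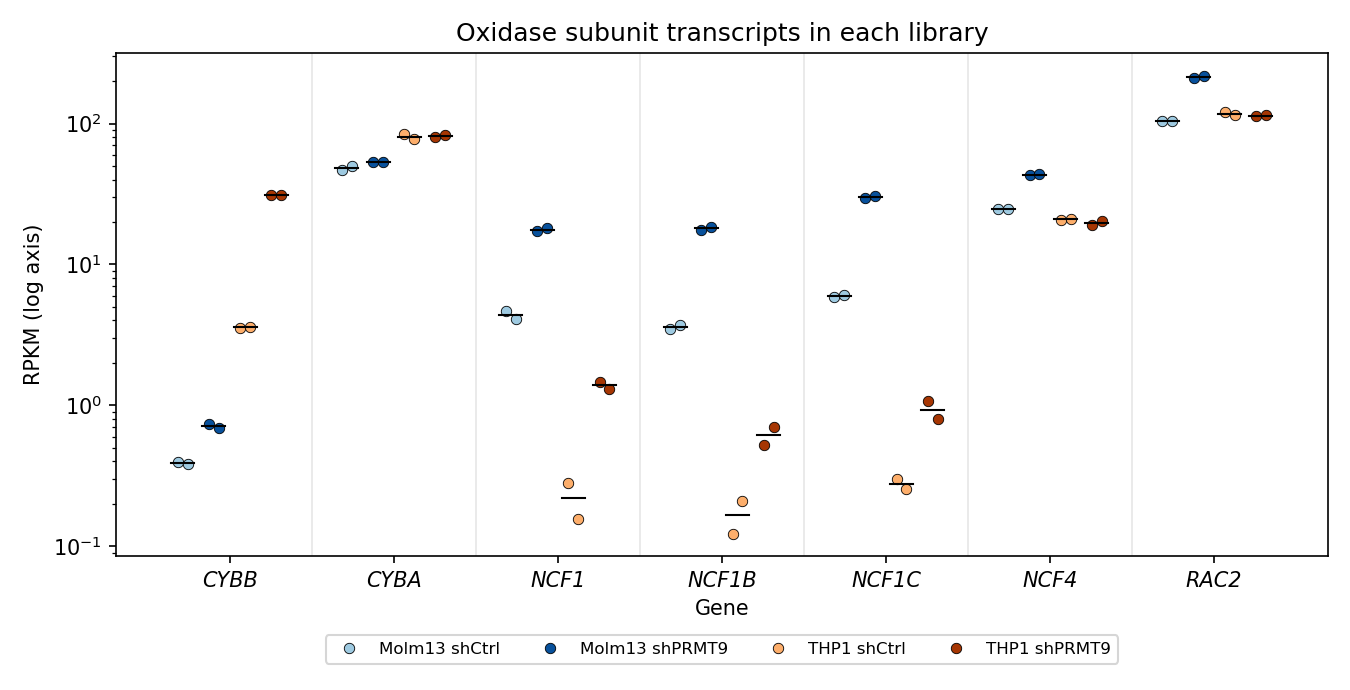
RPKM of the 7 oxidase genes on a log axis in each of the 8 libraries, with a point per library, colors for the 4 groups and a bar at each group mean (n = 2). CYBB sits lowest in Molm13 and rises to 31.3 RPKM in both THP1 shPRMT9 libraries, whereas CYBA and RAC2 are at or above 47.2 RPKM in every library.

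All 7 members differed between the shCtrl libraries of the lines, where 82.8% of the 19288 genes tested differed (40.1% higher in THP1 and 42.7% lower), so that a difference as such sets none of them apart. CYBB was 9.15-fold higher in THP1 (log2 3.19 ± 0.13 SE), CYBA 1.66-fold higher (0.73 ± 0.03) and RAC2 1.14-fold higher (0.19 ± 0.03), and NCF4 was 1.18-fold lower (−0.24 ± 0.06). The reads of NCF1 and its copies went the other way and by more. Their sum was 638 and 588 counts in Molm13 shCtrl and 42 and 36 in THP1 shCtrl, 20.9-fold lower in THP1 (log2 −4.38 ± 0.12, adjusted p = 2e-54, quasi-likelihood test in edgeR, Benjamini-Hochberg adjusted), and the single rows NCF1, NCF1B and NCF1C were lower by log2 −4.34, −4.40 and −4.42. The lines thus held the catalytic subunit and the organizer in opposite order, CYBB low and NCF1 higher in Molm13, and CYBB higher and NCF1 low in THP1. The line and the handling of its libraries, which came in separate tables, cannot be told apart.

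The effect of shPRMT9 was then read for each line. In Molm13, all 7 members passed an FDR below 0.05 and all 7 were higher in shPRMT9, where 33.4% of the 16446 genes tested were higher at this FDR, 33.5% were lower and 66.9% changed in either direction. Of the 7, 5 also met the rule for differentially expressed genes (DEGs), which adds a rise or fall of more than 1.5-fold and at least 1 library with an RPKM above 1, and which 11.4% of tested genes met upward and 22.8% in either direction. Both shPRMT9 libraries lay above both shCtrl libraries for all 7, as for 41.2% of all genes. In THP1, 4 members passed, all higher, beside 19% of 16294 genes higher and 18.6% lower, and 3 of these, CYBB, NCF1 and NCF1C, were DEGs, beside 3.83% of genes upward, 2.39% downward and 6.22% in either direction. Of the 4, NCF1B and NCF1C, with 6 to 11 counts in shCtrl, met the filter on low counts only with the shPRMT9 libraries. A fall of these rows could thus hardly have been called. CYBA, NCF4 and RAC2 did not pass in THP1. The median log2 fold change of the 7 members was 1.06 in Molm13 and 1.73 in THP1, beside 0.00047 and −0.00063 over all genes tested. Reads of NCF1, NCF1B and NCF1C can be exchanged among the 3 rows, so that these counts hold fewer than 7 separate measurements: with the 3 rows summed into 1, 5 of 5 members passed in Molm13 and 2 of 5, CYBB and the NCF1 sum, in THP1. The median over these 5 was 0.88 in Molm13 and 0.01 in THP1, so that the order of the lines by their medians turned with the treatment of the 3 rows.

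CYBB (ENSG00000165168, chromosome X, 37780011 to 37813461, plus strand), the catalytic subunit, rose in both lines and by most in THP1. In THP1 its counts were 402 and 442 in shCtrl and 3459 and 3419 in shPRMT9, or 15.8 ± 0.240 against 138 ± 0.154 CPM (SD, n = 2 each). The shPRMT9 libraries were far above the shCtrl libraries and close to each other. The fold change was 8.70 (log2 3.12 ± 0.05 SE, adjusted p = 2.6e-26, quasi-likelihood test in edgeR, Benjamini-Hochberg adjusted), rank 39 among the rises of 16294 genes. In Molm13 the counts were 36 and 33 in shCtrl and 62 and 65 in shPRMT9. The groups did not overlap, at 1.72 ± 0.0564 against 3.17 ± 0.162 CPM, and the fold change was 1.84 (log2 0.88 ± 0.22 SE, adjusted p = 0.00056), but CYBB was not a DEG there because its RPKM stayed below 1, at most 0.742. The effect was larger in THP1 by log2 2.26 ± 0.24 (adjusted p = 5.4e-14, quasi-likelihood test of the difference in edgeR, Benjamini-Hochberg adjusted). A difference of any size passed the FDR in this direction for 22.8% of genes and in either for 42.2%. The only gene overlapping CYBB in the table, RP5-972B16.2, had 0 counts in all libraries.

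CYBA (ENSG00000051523, chromosome 16, 88643283 to 88651152, minus strand), the membrane partner, moved little. In Molm13 it had 3229 and 3260 counts in shCtrl and 3373 and 3829 in shPRMT9, or 162 ± 5.77 against 179 ± 0.905 CPM. The groups did not overlap in CPM, and the rise of 1.11-fold passed the FDR (log2 0.15 ± 0.03 SE, adjusted p = 7.1e-05) but was below the fold change of a DEG. In THP1 the counts were 7205 and 7174 in shCtrl and 6722 and 6863 in shPRMT9, or 270 ± 14.8 against 273 ± 6.56 CPM, and the groups overlapped. The log2 fold change there was 0.01 ± 0.04 (SE, adjusted p = 0.85), with a sign that changed with the scaling, the filter and the libraries kept. The effect in THP1 minus that in Molm13 was −0.13 ± 0.05 (adjusted p = 0.024), which no longer passed with DESeq2 (adjusted p = 0.052), without Molm13 shCtrl replicate 1 (0.074) or without THP1 shCtrl replicate 1 (0.1).

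The level of CYBB relative to its partner followed from these values. CYBB RPKM was 0.846% and 0.768% of CYBA RPKM in the Molm13 shCtrl libraries and 1.40% and 1.29% in shPRMT9. In THP1 it was 4.23% and 4.68% in shCtrl and 39.1% and 37.8% in shPRMT9. By RPKM, CYBA was thus the higher in all 8 libraries, and the gap was smallest in THP1 shPRMT9, at 2.56 and 2.64 CYBA per CYBB. The size of these ratios depends on the total exon lengths used, 4423 bases for CYBB and 3357 for CYBA. Such lengths can exceed that of a transcript, so the values are not ratios of transcript numbers. The relative change between groups does not depend on the lengths. The ratios are of RNA and say nothing of the proteins.

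**Figure D2:**
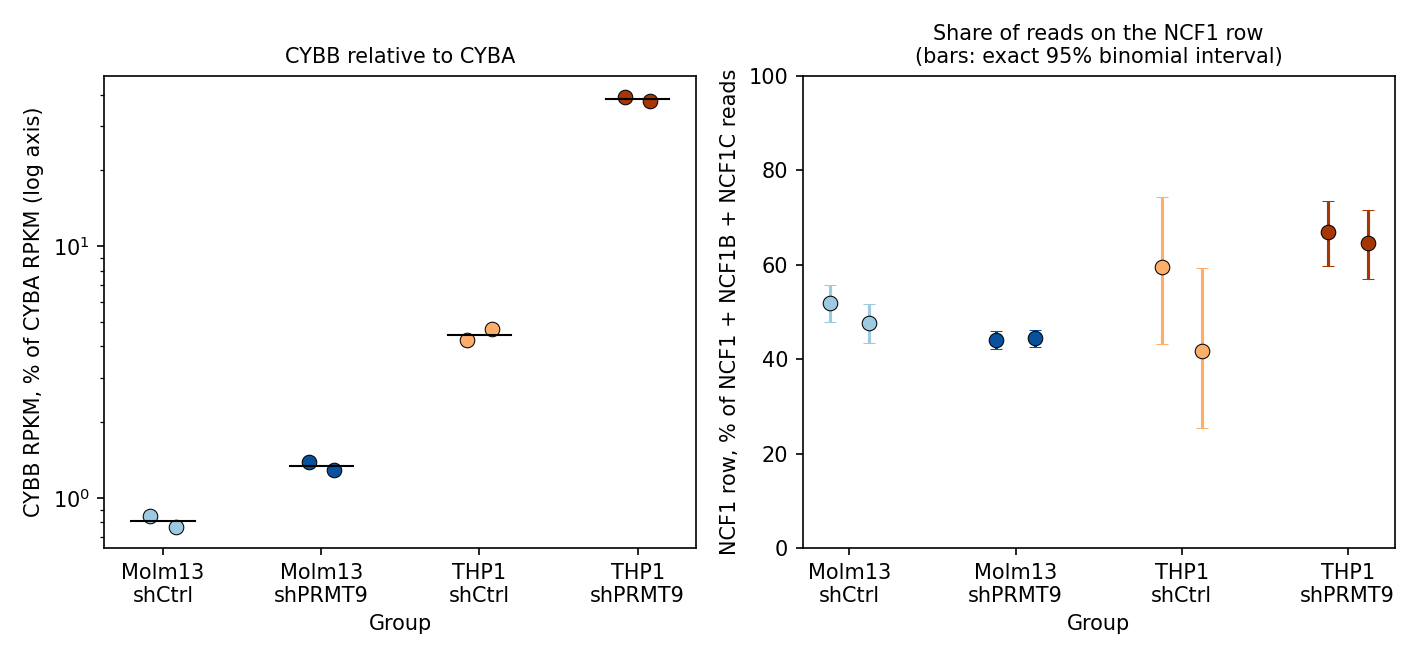
Left, CYBB RPKM as a percent of CYBA RPKM on a log axis, with a point per library and a bar at the group mean (n = 2), from 0.768% in Molm13 shCtrl to 39.1% in THP1 shPRMT9. Right, the percent of the reads of NCF1, NCF1B and NCF1C that was counted on NCF1 in each library, with exact 95% binomial intervals, which are widest in THP1 shCtrl, where the 3 rows held 42 and 36 reads.

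NCF1 (ENSG00000158517, chromosome 7, 74773962 to 74789315, plus strand), the cytosolic organizer, rose in both lines together with the rows of its copies. It is in the gene signature that the study drew from these libraries, so its rise is not independent evidence of that choice. In Molm13 its counts were 331 and 280 in shCtrl and 1122 and 1344 in shPRMT9, or 15.3 ± 1.36 against 61.3 ± 2.64 CPM. The groups were well apart, with a fold change of 4.03 (log2 2.01 ± 0.07 SE, adjusted p = 1.4e-28). In THP1 the counts were low, 25 and 15 in shCtrl and 127 and 111 in shPRMT9, or 0.759 ± 0.305 against 4.79 ± 0.411 CPM. The groups did not overlap there either, as for 33% of all genes with shPRMT9 higher, and the fold change was 6.31 (log2 2.66 ± 0.24 SE, adjusted p = 4.1e-10). Without THP1 shCtrl replicate 2, the library with 15 counts, the value was 2.28, and without shCtrl replicate 1 it was 3.13.

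The pseudogenes followed. NCF1B (ENSG00000182487, chromosome 7, 73220624 to 73235945, plus strand) had 136 and 138 counts in Molm13 shCtrl and 632 and 749 in shPRMT9, 5.03-fold higher, and 6 and 11 against 25 and 33 in THP1, 3.61-fold higher. NCF1C (ENSG00000165178, chromosome 7, 75156639 to 75172044, minus strand) had 171 and 170 counts in Molm13 shCtrl and 795 and 931 in shPRMT9, 5.06-fold higher, and 11 and 10 against 38 and 28 in THP1, 3.33-fold higher. Both passed the FDR in both lines (adjusted p = 1e-26 and 3.3e-28 in Molm13, 0.00058 and 0.00044 in THP1, quasi-likelihood test in edgeR, Benjamini-Hochberg adjusted). In THP1 both met the filter on low counts only with the shPRMT9 libraries, so that a rise was the likely call. In neither line did the groups overlap. Over all genes, shPRMT9 was higher without overlap for 41.2% in Molm13 and 33% in THP1. NCF1B was no DEG in THP1, where its RPKM was at most 0.703, and the DEG call of NCF1C there rested on shPRMT9 replicate 1, at 1.06 RPKM: without that library 2 members were DEGs in THP1 instead of 3.

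The sum of the 3 rows, which is unaffected by how reads were split among them but not by reads that the counting left out, was 638 and 588 counts in Molm13 shCtrl and 2549 and 3024 in shPRMT9. That is 30.7 ± 0.886 against 138 ± 5.01 CPM, a rise of 4.54-fold (log2 2.18 ± 0.05 SE, adjusted p = 1.8e-35). In THP1 it was 42 and 36 against 190 and 172, or 1.47 ± 0.236 against 7.28 ± 0.444 CPM, a rise of 4.94-fold (log2 2.30 ± 0.17 SE, adjusted p = 1.5e-11, quasi-likelihood test in edgeR, Benjamini-Hochberg adjusted). The effects on the sum differed between the lines by log2 0.13 ± 0.18 (adjusted p = 0.62), and the sign of this difference turned without THP1 shCtrl replicate 2 (−0.06). The row NCF1 alone differed between the lines by log2 0.66 ± 0.25 (adjusted p = 0.026), but this did not pass with DESeq2 (adjusted p = 0.066), without the filter on low counts (0.056) or when any of 4 libraries was left out on its own, and it fell to 0.25 without THP1 shCtrl replicate 2. Its copies had differences in the other direction that did not pass, −0.47 ± 0.44 for NCF1B (adjusted p = 0.43) and −0.59 ± 0.39 for NCF1C (adjusted p = 0.24). The level reached was far lower in THP1, where the highest library, at 7.60 CPM, was below the lowest Molm13 shCtrl library, at 30.02 CPM.

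The share of the 3 rows that fell on NCF1 was 51.9% (exact 95% binomial interval 47.9 to 55.8) and 47.6% (43.5 to 51.7) in Molm13 shCtrl and 44.0% (42.1 to 46.0) and 44.4% (42.7 to 46.2) in shPRMT9. The shPRMT9 shares were the lower in Molm13. In THP1 it was 59.5% (43.3 to 74.4) and 41.7% (25.5 to 59.2) in shCtrl and 66.8% (59.7 to 73.5) and 64.5% (56.9 to 71.7) in shPRMT9, where the shPRMT9 shares were the higher and the shCtrl intervals were wide. The intervals cover counting error only. Of the reads as assigned, the copies held between 13.2% and 30.6% for NCF1B and between 16.3% and 31.2% for NCF1C over the libraries. These shares do not show which locus a read came from.

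NCF4 (ENSG00000100365, chromosome 22, 36860988 to 36878015, plus strand), the phosphoinositide-binding subunit, rose in Molm13 and was not called in THP1, and the difference between the lines was itself tested. Its counts in Molm13 were 890 and 849 in shCtrl and 1431 and 1638 in shPRMT9, or 43.5 ± 0.197 against 76.3 ± 0.834 CPM. The groups were apart, with a fold change of 1.76 (log2 0.82 ± 0.05 SE, adjusted p = 1.7e-19). In THP1 the counts were 931 and 1026 in shCtrl and 837 and 886 in shPRMT9, or 36.7 ± 0.617 against 34.7 ± 1.72 CPM. Both shPRMT9 libraries were just below the shCtrl libraries, as for 33% of all genes, and the log2 fold change was −0.09 ± 0.06 (SE, adjusted p = 0.28). The effect was lower in THP1 by log2 −0.90 ± 0.08 (adjusted p = 1.1e-17). A difference of any size passed in this direction for 19.4% of all genes. A gene on the other strand, CTA-833B7.2, overlaps NCF4 and had at most 1 count in any library.

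RAC2 (ENSG00000128340, chromosome 22, 37225261 to 37244448, minus strand), the GTPase of the complex, rose in Molm13 and was not called in THP1. Its counts were 5347 and 5130 in shCtrl and 10083 and 11751 in shPRMT9, or 262 ± 0.127 against 543 ± 12.8 CPM. The fold change was 2.08 (log2 1.06 ± 0.03 SE, adjusted p = 4e-33, quasi-likelihood test in edgeR, Benjamini-Hochberg adjusted). In THP1 it had 7832 and 8040 counts in shCtrl and 7150 and 7182 in shPRMT9, or 298 ± 9.94 against 288 ± 3.60 CPM. Both shPRMT9 libraries were just below the shCtrl libraries, as for 33% of all genes. The log2 fold change was −0.05 ± 0.03 (SE, adjusted p = 0.22), and when libraries were scaled by their totals alone the value was −0.08 and passed (adjusted p = 0.044). The effect was lower in THP1 by log2 −1.10 ± 0.04 (adjusted p = 6.6e-41). In shPRMT9 RAC2 was at 214 ± 5.07 RPKM in Molm13 and 114 ± 1.42 RPKM in THP1 (SD, n = 2 each).

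**Figure D3:**
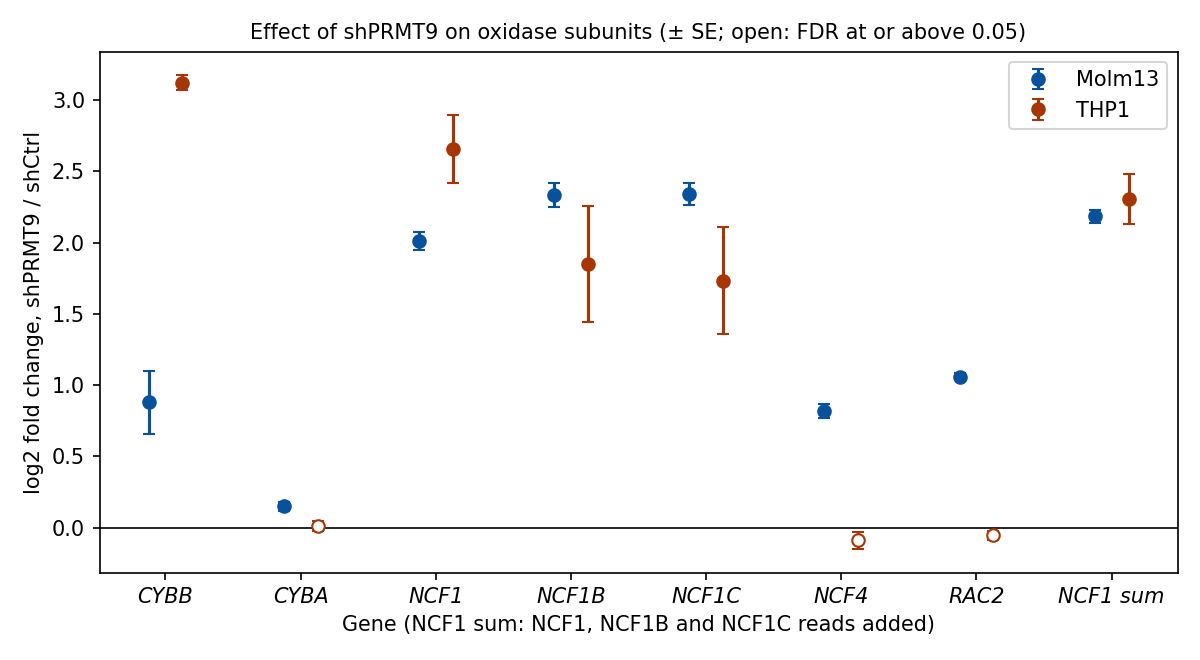
Log2 fold change of shPRMT9 over shCtrl (± SE) of the 7 members and of the NCF1 sum in Molm13 and THP1, each line fitted alone, with open points for an FDR at or above 0.05. All points lie above 0 in Molm13, from 0.15 to 2.34, and in THP1 CYBA, whose sign changed with the processing, NCF4 and RAC2 lie near 0.

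The difference of the 2 effects passed the FDR for 5 of the 7 members, beside 42.2% of all genes. It was higher in THP1 for CYBB and NCF1, and lower in THP1 for CYBA, NCF4 and RAC2. The values of CYBB, NCF4 and RAC2 passed under every alternative tried and those of NCF1 and CYBA did not.

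For each member the genes most alike over the 8 libraries were taken by Pearson's r of log2 CPM among 14887 genes. These libraries form 4 groups in 2 lines, so that any gene with like group means has a high r, and r is given as a description. CYBB was most like IFITM3, an interferon-induced membrane protein (r = 0.998), whose log2 fold change was 0.90 in Molm13 and 2.80 in THP1, and DCBLD1 (r = 0.997), at 0.10 and 0.29. CYBA was most like XYLT2, at 0.36 and 0.10, and ACOT2, at 0.30 and −0.02 (r = 0.998 each). The NCF1 sum was most like MBP (r = 0.998), at 0.35 and 0.37, and TRIM38 (r = 0.998), a tripartite motif protein that rose by 0.56 and 0.50. The sum itself rose by more, 2.18 and 2.30. NCF4 was most like F11R, a junctional adhesion molecule (r = 0.999), at 1.58 and −0.13, and OGT, which attaches N-acetylglucosamine to proteins (r = 0.996), at 0.69 and 0.02. RAC2 was most like FAM53C and the annexin ANXA11 (r = 0.998 each), at 0.51 and 0.46 in Molm13 and −0.04 and −0.04 in THP1.

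The other genes of the pathway were read from 4 lists. Of 22 symbols of oxidase regulators and partners (CYBC1 and C17orf62 being the same gene), 21 were tested in Molm13, of which 10 rose and 8 fell, and 20 in THP1, of which 5 rose and 4 fell. Over all genes tested, 33.4% rose and 33.5% fell in Molm13, and 19% rose and 18.6% fell in THP1. The median log2 fold changes of the list were 0.07 and −0.01. HVCN1, the voltage-gated proton channel that balances the charge moved by the oxidase, was at 23.5 and 26.0 CPM in Molm13 shCtrl and 64.4 and 63.0 in shPRMT9 (log2 1.36 ± 0.06 SE, adjusted p = 2.1e-24). The groups were well apart there, whereas in THP1 HVCN1 was at 11.1 and 10.3 against 11.2 and 11.8 CPM (0.11 ± 0.10, adjusted p = 0.43). VAV1 and PREX1, exchange factors that load RAC proteins with GTP, rose in Molm13 by log2 0.78 ± 0.03 and 0.60 ± 0.03, and their values in THP1 were −0.06 ± 0.04 and −0.07 ± 0.04, which did not pass. The differences between the lines passed for HVCN1 (−1.24, adjusted p = 1.2e-16), VAV1 (−0.83, adjusted p = 9.3e-26) and PREX1 (−0.66, adjusted p = 1.9e-21, quasi-likelihood test in edgeR, Benjamini-Hochberg adjusted), in the direction of RAC2 and NCF4. PAK2, a kinase activated by RAC proteins, fell in both lines (−0.65 ± 0.03 and −0.41 ± 0.03), and its difference passed in the other direction (0.26, adjusted p = 3.6e-07). VAV3, unlike VAV1, fell in Molm13 (−0.27 ± 0.07) and was at −0.04 ± 0.04 in THP1. Its difference passed in the direction of PAK2 (0.24, adjusted p = 0.011). Of 21 genes of the list tested for a difference, the log2 fold change was higher in THP1 for 7 and lower for 7, beside 22.8% and 19.4% of all genes.

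Of 12 other NADPH oxidases, their partners and the remaining RAC GTPases, only 3 had enough reads in Molm13 and 4 in THP1. In Molm13, 1 rose and 2 fell (median log2 fold change −0.28), and in THP1 1 rose and 1 fell (median 0.06), beside 66.9% and 37.6% of all genes called in either direction in the 2 lines. NOX1, NOX3 and NOX4 were at or below 0.0806 CPM in every library and were not tested. NOXA1, an activator of the NOX1 oxidase, was at 0.588 and 0.562 CPM in Molm13 shCtrl and 2.94 and 2.59 in shPRMT9 (log2 2.25 ± 0.30 SE, adjusted p = 9.6e-09), and at 1.79 to 2.54 CPM in THP1, where it was not called (0.07 ± 0.23, adjusted p = 0.85). NOX5, a calcium-regulated oxidase, had too few reads for the test within Molm13, where it was at 0 to 0.267 CPM. In THP1 it was at 0.0781 and 0.288 CPM in shCtrl and 0.596 and 0.484 in shPRMT9 (1.51 ± 0.56, adjusted p = 0.036), and its difference between the lines did not pass (−0.19, adjusted p = 0.97). NOX5 was the 1 rise counted in THP1, and it met the filter on low counts there only through the shPRMT9 libraries. A fall of NOX5 could thus hardly have been called. RAC3 fell in both lines (−0.43 ± 0.12 and −1.13 ± 0.12), and its difference between the lines passed (−0.69, adjusted p = 0.00071).

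Of 12 enzymes that act on superoxide and hydrogen peroxide, 10 were tested in each line, of which 2 rose and 5 fell in Molm13 (median log2 fold change −0.06) and 3 rose and 5 fell in THP1 (median −0.08). The shares over all genes were 33.4% and 33.5% in Molm13 and 19% and 18.6% in THP1. GPX1, which reduces hydrogen peroxide with glutathione, rose in both lines (0.60 ± 0.03 and 0.22 ± 0.03). MPO, the granule enzyme that makes hypochlorous acid from hydrogen peroxide, fell in both lines, from 60.5 and 61.7 to 40.3 and 42.3 CPM in Molm13 (−0.56 ± 0.05 SE) and from 8.24 and 6.77 to 4.29 and 4.19 CPM in THP1 (−0.82 ± 0.14 SE).

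Of 16 transcription factors described at oxidase subunit promoters, 15 were tested in each line. In Molm13 9 rose and 4 fell (median log2 fold change 0.20), and in THP1 8 rose and 5 fell (median 0.09), beside 33.4% and 19% of all genes that rose and 33.5% and 18.6% that fell. IRF2, an interferon regulatory factor, fell in Molm13 (−0.34 ± 0.07) and rose in THP1 (0.72 ± 0.07), and CEBPB, a factor of myeloid differentiation, did likewise (−0.77 ± 0.12 and 0.41 ± 0.09), with differences that passed (adjusted p = 1e-15 and 6.5e-11, quasi-likelihood test in edgeR, Benjamini-Hochberg adjusted). IRF8 and CEBPA went the other way. They rose in Molm13 (0.23 ± 0.02 and 0.20 ± 0.03) and fell in THP1 (−0.23 ± 0.03 and −0.12 ± 0.03), and their differences passed too (−0.44 and −0.31). SPI1 rose in both lines (0.47 ± 0.04 and 0.42 ± 0.03). Of 16 genes of the list tested for a difference, 5 were higher in THP1 and 5 lower, beside 22.8% and 19.4% of all genes. FOS rose in both lines (0.76 ± 0.05 and 1.02 ± 0.07), JUN rose in Molm13 (0.83 ± 0.15) and was at −0.01 ± 0.10 in THP1 (adjusted p = 0.97), and HOXA10 fell in both (−0.44 ± 0.05 and −0.59 ± 0.06). The promoter letters shown above for CYBB and NCF1 were not set against these values by a test.

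**Figure D4:**
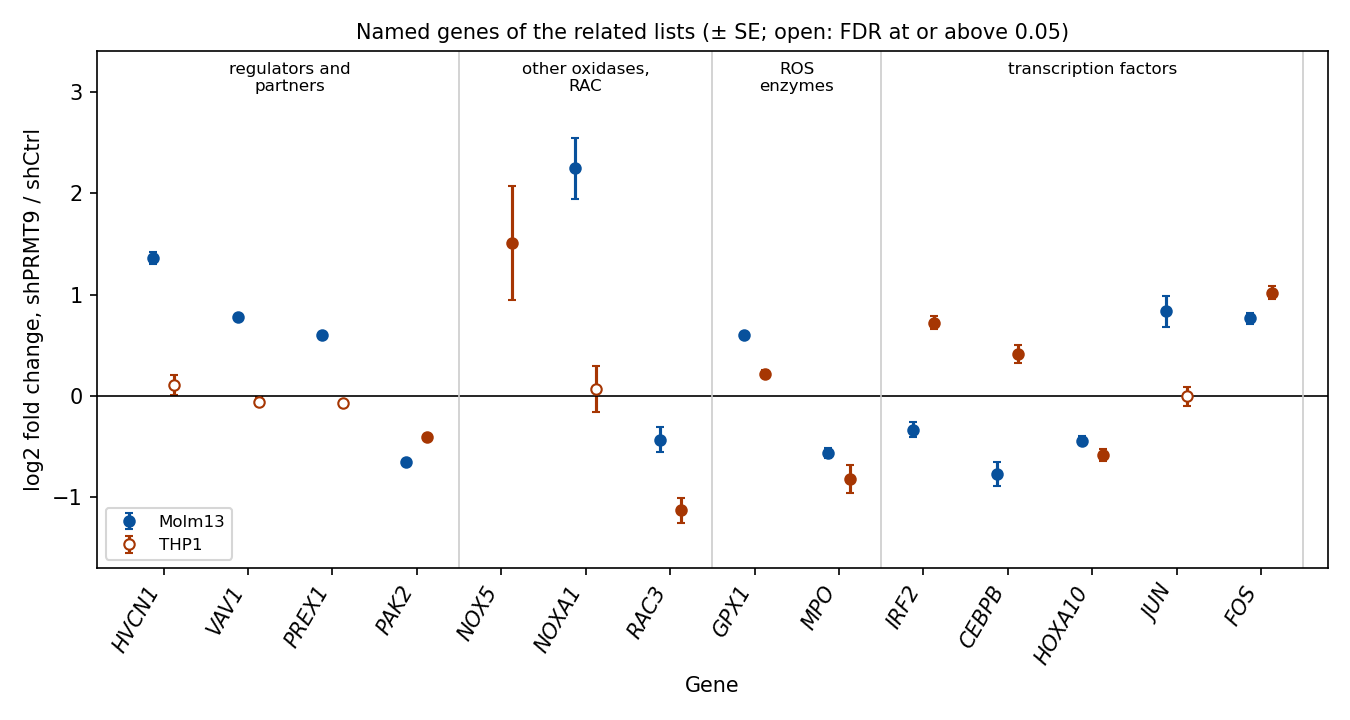
Log2 fold change of shPRMT9 over shCtrl (± SE) in Molm13 and THP1 for the genes named from the 4 related lists, grouped by list, with open points for an FDR at or above 0.05. HVCN1, VAV1 and PREX1 lie above 0 in Molm13 and near 0 in THP1, and IRF2 and CEBPB lie on opposite sides of 0 in the 2 lines.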

How the data were processed

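Counts of polyA RNA-seq libraries (total RNA, Kapa mRNA HyperPrep kit, Illumina HiSeq) were used for Molm13 and THP1, 2 libraries in each of 4 groups. The authors deposited whole-number counts of reads per gene, without normalization, in a table for each line. The submitters' processing notes name TopHat2 2.0.8, HTSeq 0.11.2, edgeR 3.30.3 and hg38. The annotation, the strand setting and the treatment of reads with several matches are not given in the sources used here. Coordinates are those of the Molm13 table, and all 7 members have the same start and end in GENCODE release 29. Other subunits of the oxidase were not analysed here, and genes left out of the lists are not reported here.

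Each line was fitted alone in R 4.3.3 with edgeR 4.0.16 (TMM normalization, filterByExpr, quasi-likelihood test, Benjamini-Hochberg adjustment over all genes tested), and all 8 libraries were fitted together over 19288 genes with a shared identifier for the difference between the lines and the comparison of shCtrl libraries. The SE is the size of the log2 fold change over the root of the test's F. CPM and RPKM of the members and markers are scaled over the 8 libraries, and CPM of the genes of the related lists within each line. Libraries of a group were not copies of each other, with a chi-square per gene of 1.32 to 2.06, and TMM factors were 0.989 to 1.02. The biological coefficient of variation was low, 0.0201 and 0.0247 in Molm13 and THP1, and small changes passed. From each related list, the genes past the FDR and a fold change of 1.5 in a line were named, at most 6, with 2 genes most like each member. VAV3, SPI1, IRF8 and CEBPA were named beside them without reaching that fold change. The members and the lists were chosen with earlier results of these data known. The fits were run on counts simulated from a negative binomial model with a fixed dispersion, which checks the code and not how well the model describes these data. Alternatives were other normalizations, no filter, DESeq2 1.42.0, a replicate block, a common fit, a fold change above 2, a summed NCF1 row and leaving out each library in turn.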

Additional observations from a re-analysis of the deposited data

Results flagged for a closer look

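The lines differed in the effect of shPRMT9, by the test of the difference in edgeR's fit of all 8 libraries, for 5 of the 7 members, beside 42.2% of all genes tested. As the effect in THP1 minus that in Molm13, on the log2 scale, it was 2.26 for CYBB, 0.66 for NCF1, −0.13 for CYBA, −0.90 for NCF4 and −1.10 for RAC2. For CYBB, both effects were rises and that in THP1 was the larger, whereas NCF4 and RAC2 rose in Molm13 and were not called in THP1. With 2 libraries per group, no library could be tested as an outlier.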

How the results depend on the processing

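Of 334 values recomputed under the alternatives, 316 kept their direction and their side of the threshold (for counts, stayed within 1.5 times). In THP1, 2 members passed the FDR when the 3 NCF1 rows were summed, by construction, since the summed table has 5 members. The log2 fold change of CYBA in THP1 was −0.016 with library size alone, −0.0012 without the filter and between −0.052 and 0.071 when a library was left out, and that of RAC2 passed with library size alone (−0.080, adjusted p = 0.044). Between the lines, 3 members passed with DESeq2 and from 3 to 5 when a library was left out, the count being 3 without Molm13 shCtrl replicate 1. The difference of NCF1 was 0.65 without the filter (adjusted p = 0.056), 0.64 with DESeq2 and 0.25 to 1.09 when a library was left out (adjusted p over all alternatives 0.0065 to 0.58). That of CYBA was −0.15 with DESeq2 and −0.22 to −0.11 when a library was left out (adjusted p 0.00015 to 0.1), and that of the NCF1 sum was −0.061 to 0.26. The causes were not tested. A library left out leaves an arm with 1 library, whose spread is then taken from the other groups.

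With the replicate number as a block, 7 members passed in Molm13, 4 in THP1, 5 between the lines and 7 between the shCtrl libraries, the same as without it, and the replicate block changed no other call. The labels do not say that a number marks a shared culture or batch. The deviations of same-numbered libraries correlated at −0.09 in Molm13 and −0.01 in THP1. With 2 libraries per group, this cannot tell whether same-numbered libraries shared a culture or batch. Depth limits the THP1 values of NCF1, NCF1B and NCF1C, which had 6 to 25 counts in shCtrl, and the Molm13 values of CYBB, with 33 to 65 counts.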
